A study of Mus musculus with 12 samples.

Results

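Transcripts of 9 immune checkpoint ligands were followed in CT26 cells, a colon carcinoma line of the mouse. The genes were chosen by name from the 23636 symbols of the expression table: CD274 (PD-L1), PDCD1LG2 (PD-L2), CD80, CD86, CD276, CD47, PVR, LGALS9 (galectin-9) and CEACAM1. All libraries came from this 1 line in culture, without the host's immune cells. The 4 groups were cells with no treatment, cells given CX3CL1 (fractalkine), cells given IFN-γ and cells given both, CX3CL1+IFN-γ. For CX3CL1 the paper's RNA methods state 2 µg/ml and 8 h. The IFN-γ dose of 100 ng/ml, also for 8 h, is stated only in a figure legend. The paper's results text for that figure also names TNF-α and places CX3CL1 after it. Neither the legend nor the labels name TNF-α, so its presence and the order of addition cannot be told here. Each group had 3 libraries that the labels call biological replicates, 12 in all, and nothing in the labels says whether they were separate cultures, so p-values measure the spread between these samples only. The question was how the 2 factors, alone and together, changed what the tumor cells transcribe of the signals that restrain T cells and macrophages.

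Checkpoint ligands sit on the surface of tumor cells or antigen presenting cells, or are released by them, and bind inhibitory receptors on lymphocytes and phagocytes. PD-L1 and PD-L2 bind PD-1 on T cells, and transcription of the PD-L1 gene is known to follow IFN-γ through JAK kinases and IRF1, with NF-kB as a further input. CX3CL1 is a chemokine that is tethered to membranes or shed, and its receptor is CX3CR1.

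The values are TPM, a transcript level scaled to transcript length and to a total of 1000000 in every library. Levels of different genes may thus be set side by side, while the sequencing depth reached in each library is unknown. Between 10613 and 10824 symbols reached 1 TPM in a library, and replicates correlated on the log2 scale at Pearson's r of 0.994 to 0.998 across genes, which are not independent. Of 16 leukocyte markers, 12 stayed under 1 TPM in all 12 libraries and CD3E, CD4, CD8A and MS4A1 were listed at 0, with PTPRC (CD45) at 0.0152 TPM or less on average in any group. CD14 and CD68, the highest of that list, made up most of its summed level, which ran from 35.9 to 47.1 TPM without treatment, 38.1 to 69.7 with CX3CL1, 37.7 to 60.4 with IFN-γ and 42.6 to 76.8 with both. None of the 4 that passed a filter of 0.2 TPM on the mean was called by limma, a linear model fitted to every gene, and S100A8 passed for both factors against CX3CL1 with the replicate number as a block (1.59 on the log2 scale, limma adjusted p 0.0467). Of 8 colon epithelial markers, 6 stayed under 1 TPM in every library, EPCAM at 0 among them, and only KRT18 and KRT20 were expressed, so the transcripts carried few of the markers of the labelled tissue. The summed level of these 8 markers ran from 51.2 to 64.7 TPM without treatment, 33.6 to 44.4 with CX3CL1, 35.7 to 41.8 with IFN-γ and 24.9 to 33.2 with both, so every treated library lay below every untreated one. KRT18, a keratin of simple epithelia, fell by 0.68 on the log2 scale with IFN-γ (limma adjusted p 0.0346), a call lost without any 1 IFN-γ library or untreated replicate 2 or 3, and differed by -0.59 with CX3CL1 (limma adjusted p 0.172). KRT20 differed by -0.57 with CX3CL1 and by -0.61 when CX3CL1 was added to IFN-γ. It passed in these 2 comparisons only with the replicate block (limma adjusted p 0.00609 and 0.0130). The part of these changes in the ligand results was not tested. Transcripts of CX3CR1, the receptor of the added chemokine, did not exceed 0.154 TPM in any library. By flow cytometry the paper reports high levels of the CX3CR1 protein on CT26 cells, so this RNA value does not show that the receptor was absent.

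The ligands lie on 5 chromosomes in GENCODE vM21 (GRCm38). CD274 (chr19:29367455-29388095, plus strand) and PDCD1LG2 (chr19:29410919-29471161, plus strand) are neighbours, separated by 22.824 kb. CD86 (chr16:36603869-36666081), CD80 (chr16:38455561-38496335) and CD47 (chr16:49800533-49915010) share another chromosome. PVR (chr7:19903578-19921160), CEACAM1 (chr7:25461707-25477603), CD276 (chr9:58524298-58555437) and LGALS9 (chr11:78962974-78984946) complete the set. RefSeq promoter windows (GRCm38.p6, 250 bases before to 50 after the start) were found for 7 of the 9 genes and searched on both strands for the GAS motif TTCNNNGAA, the interferon element (GAAA, any 2 bases, GAAA) and the NF-kB consensus, which occur in 8.30%, 3.44% and 8.46% of 32851 windows. LGALS9 held the interferon element at 2 places, from 55 bases before the start and from 15 bases after it, PDCD1LG2 held an NF-kB match from 244 bases before its start, and the window of CD274 held none of these letters. The stretches before the starts of LGALS9 and CD274 are shown because these genes answered IFN-γ most among the members, with the matched interferon element in capitals, in its reverse complement. The first is the 228 bases at chr11:78984947-78985174 (minus strand), which stop 22 bases short of the RefSeq start because GENCODE begins the gene there, so that the element fills bases 196 to 205 of the stretch. The second is the 47 bases at chr19:29367391-29367437 (plus strand), which end at the RefSeq start of CD274. The GENCODE start lies 17 bases further on, and the gap to PLGRKT, which starts next to CD274 in the other direction, is 64 bases in GENCODE.
LGALS9: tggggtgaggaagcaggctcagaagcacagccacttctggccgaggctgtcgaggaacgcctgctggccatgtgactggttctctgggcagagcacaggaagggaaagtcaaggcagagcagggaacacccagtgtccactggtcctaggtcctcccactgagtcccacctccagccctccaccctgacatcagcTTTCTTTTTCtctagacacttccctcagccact
CD274: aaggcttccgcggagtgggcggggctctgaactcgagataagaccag

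In untreated cells the ligand transcripts spanned a wide range of levels. LGALS9, the gene of a lectin that binds TIM-3 among other partners, averaged 129.7 ± 19.9 TPM (SD, n = 3) and lay above 89.1% of the 11878 genes tested. CD47, whose protein binds SIRPα on macrophages and restrains engulfment, averaged 103.2 ± 18.4 TPM, and PVR (CD155), a ligand of TIGIT and CD226, 76.4 ± 16.8 TPM. CD276 and CD80 were expressed at 15.6 ± 1.96 and 14.7 ± 2.50 TPM. CD274 stood at 3.08 ± 0.968 TPM, above 17.5% of the genes tested, and CEACAM1 at 0.485 ± 0.0813 TPM. PDCD1LG2 and CD86 were listed at 0 in all 3 untreated libraries. Their highest values anywhere were 0.0152 and 0.0329 TPM, with 5 and 2 of 12 libraries above 0, so both fell under the filter (a mean of 0.2 TPM over the 12 libraries) and only 7 of the 9 ligands were tested.

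**Figure D1:**
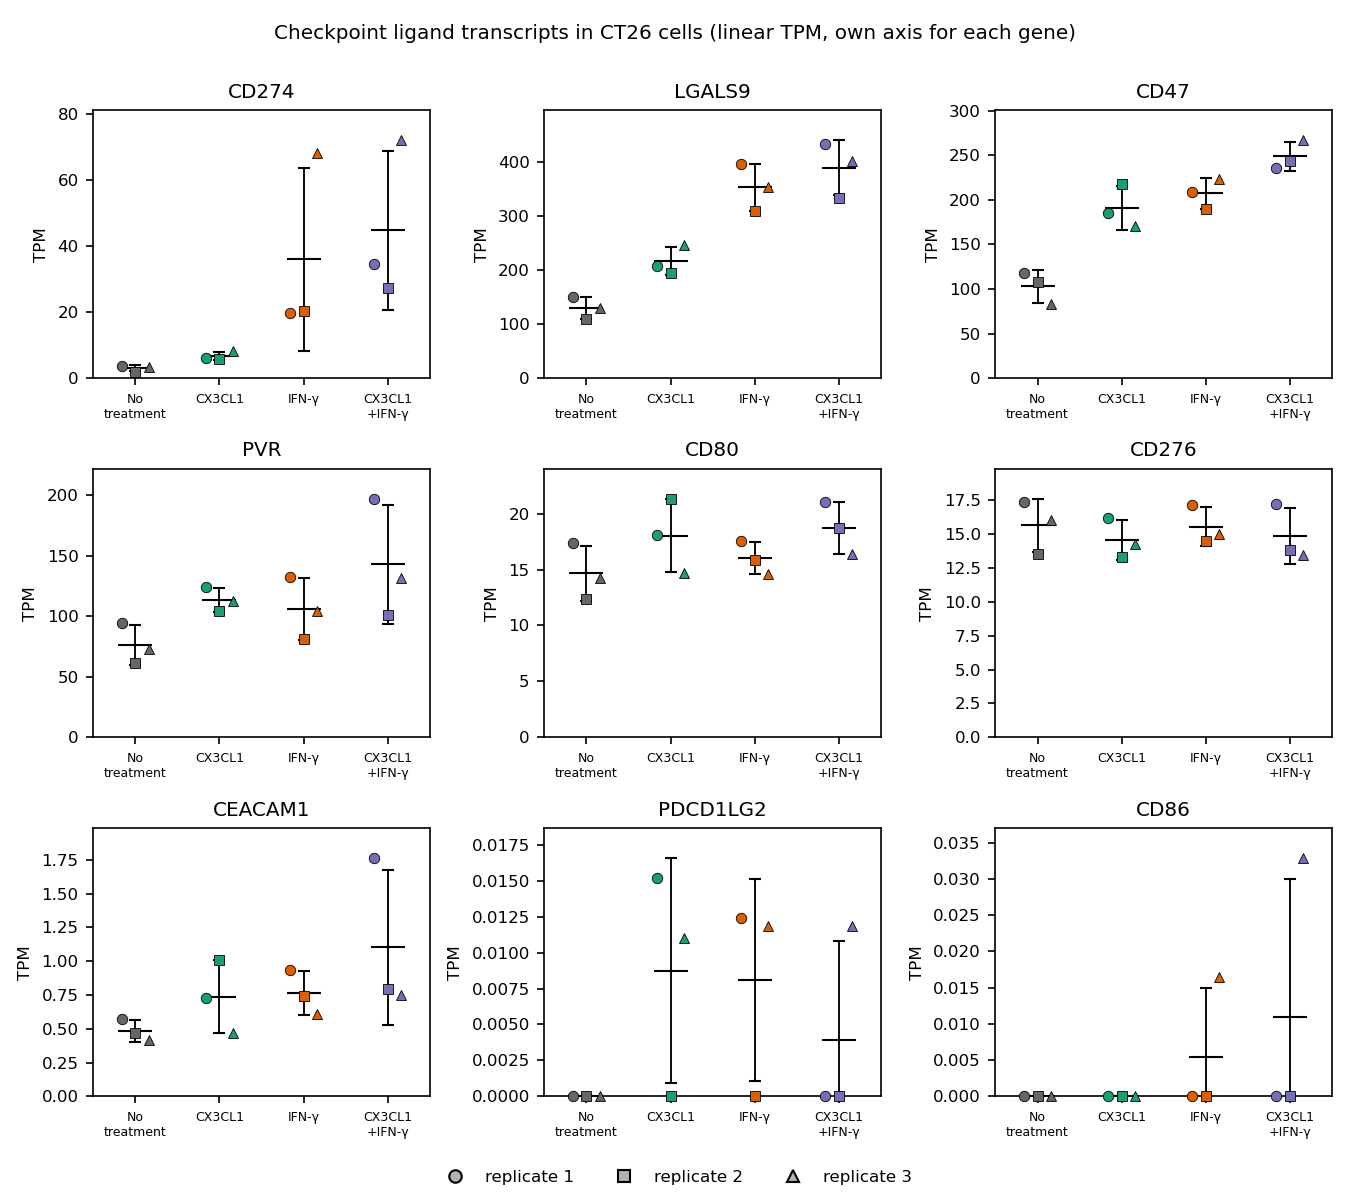
Levels of the 9 ligands in TPM on linear axes, a separate axis for each gene, with 1 point per library (marker shape gives the replicate number) and the mean ± SD of the 3 libraries of each group. CD274 rose from a mean of 3.08 TPM without treatment to 36.0 with IFN-γ, where replicate 3 lay far above the others, while CD276 stayed between 13.3 and 17.4 TPM in all 12 libraries.

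IFN-γ raised 3 of the 7 tested ligands: CD274, LGALS9 and CD47. Tests were made with limma on log2(TPM + 1) over all genes, with Benjamini-Hochberg adjustment and a threshold of 0.05. In this comparison 5.91% of all genes tested were called higher, and the median log2 fold change was 0.46 over the 7 ligands and 0.03 over all genes. In bulk RNA, more cells expressing a gene and more RNA per cell cannot be told apart.

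CD274 read 3.86, 1.99 and 3.38 TPM in the untreated libraries and 19.6, 20.4 and 68.1 TPM with IFN-γ. The groups did not overlap, with IFN-γ the higher as in 20.6% of all genes tested. The third IFN-γ library stood well above the others. The log2 fold change was 2.97 (SE 0.431, 95% interval 2.03 to 3.90), with an adjusted p of 0.00066 by limma, rank 63 from the top among 11878 genes. The ratio of the mean levels was 11.7, and it fell to 6.50 without the replicate 3 library of IFN-γ, where the log2 fold change was 2.40 (limma adjusted p 0.00093). Taken by replicate number, the IFN-γ library held 5.09, 10.2 and 20.1 times the CD274 level of the untreated one.

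LGALS9 read 149.7, 109.8 and 129.7 TPM without treatment and 396.7, 310.0 and 354.3 TPM with IFN-γ, at 2.65, 2.82 and 2.73 times the untreated level by replicate number. Its replicates kept close together in both groups. The log2 fold change was 1.44 (SE 0.143, limma adjusted p 3.13e-05). CD47 read 118.6, 108.4 and 82.7 TPM without treatment and 209.0, 189.2 and 223.7 TPM with IFN-γ. Again every treated library lay above every untreated one. The log2 fold change of CD47 was 1.01 (SE 0.136, limma adjusted p 0.000331).

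PVR read 94.6, 61.6 and 72.9 TPM without treatment and 132.7, 81.0 and 104.3 TPM with IFN-γ. The groups overlapped, although within each replicate number the IFN-γ library was the higher, at 1.40, 1.31 and 1.43 times the untreated level. The log2 fold change was 0.46 (SE 0.234) with a limma adjusted p of 0.273. Same-numbered libraries of these groups deviated together, with correlations of 0.220 to 0.460, and with the replicate number as a block PVR passed the test (limma adjusted p 0.0195), as did 1929 genes in place of 932, with 11.4% of all genes then called higher. CD80, the costimulatory ligand of CD28 and CTLA-4, differed by 0.13 (limma 95% interval -0.20 to 0.47) and CD276 by -0.01 (-0.29 to 0.28) on the log2 scale, and neither was called. CEACAM1 was higher in each IFN-γ library (0.612 to 0.935 TPM) than in any untreated one (0.413 to 0.573 TPM), as were 20.6% of all genes, and was not called (log2 fold change 0.24, limma adjusted p 0.444). Reads of CEACAM1 may be shared with its near-identical mouse paralog, and an antisense transcript is annotated over its whole length, so its values are uncertain. Antisense genes are also annotated over 11055 bases of CD274, 6412 of PDCD1LG2 and 432 of PVR, and their part in the values was not tested.

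CX3CL1 alone raised CD47 and LGALS9, 2 of the 7 tested ligands, in a comparison in which 1.78% of all genes tested were called higher. The median log2 fold change was 0.58 over the 7 ligands and -0.02 over all genes. CD47 read 184.7, 217.9 and 170.3 TPM with CX3CL1, all above its untreated libraries. Its log2 fold change was 0.89 (SE 0.136, limma adjusted p 0.00291). LGALS9 read 208.5, 195.7 and 246.0 TPM with CX3CL1, between its untreated and its IFN-γ libraries and overlapping neither. Its log2 fold change was 0.74 (SE 0.143, limma adjusted p 0.0147). This call was lost without untreated replicate 2 (limma adjusted p 0.0844), untreated replicate 3 (0.0656) or CX3CL1 replicate 3 (0.0804).

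CD274 and PVR were also higher in every CX3CL1 library than in any untreated one, a pattern shared by 5.50% of all genes, and neither passed the test. CD274 read 6.12, 5.79 and 8.13 TPM with CX3CL1, at 2.17 times the untreated mean. Its log2 fold change was 0.93 (SE 0.431, 95% interval -0.00368 to 1.87) with a limma adjusted p of 0.622. PVR read 123.8, 104.3 and 112.2 TPM, with a log2 fold change of 0.58 (SE 0.234) and a limma adjusted p of 0.463. It passed only with the replicate block (limma adjusted p 0.0161), where 2.92% of all genes were called higher. The lowest CX3CL1 library of PVR lay just above its highest untreated one. CD80 (0.28), CEACAM1 (0.22) and CD276 (-0.09) differed by less on the log2 scale, with overlapping libraries.

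**Figure D2:**
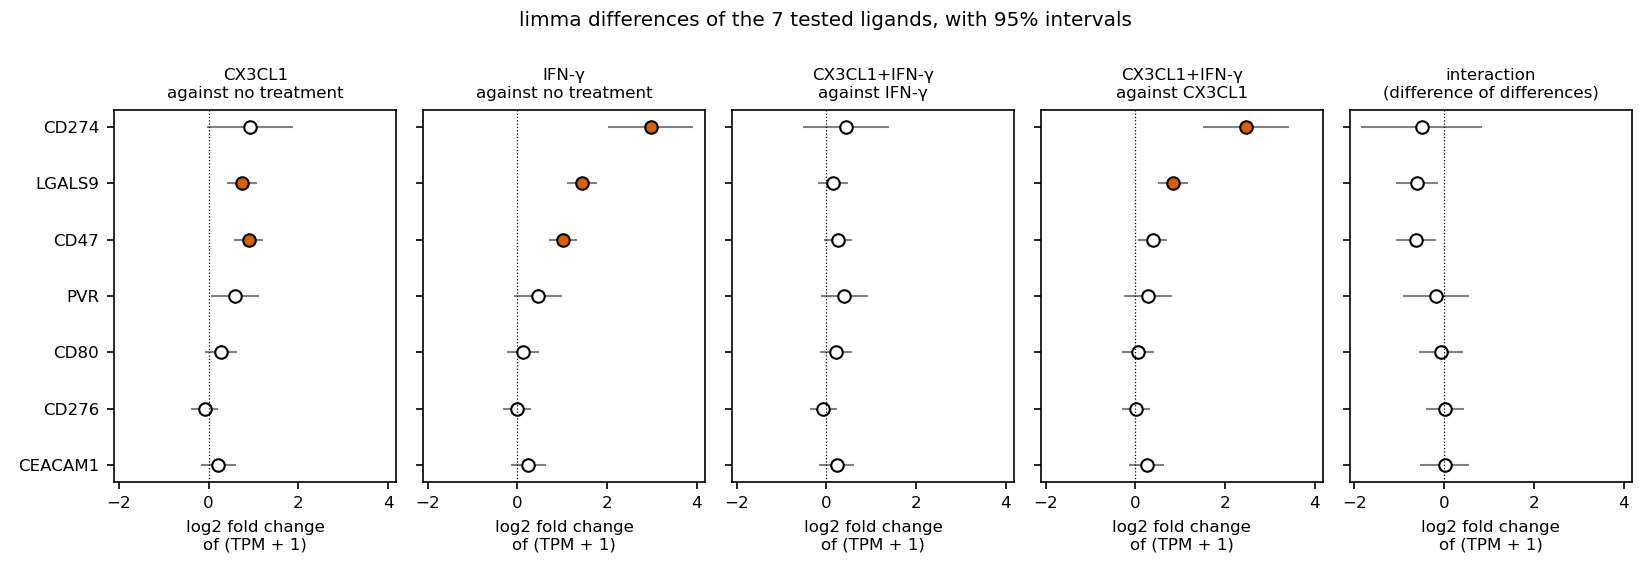
Differences of log2(TPM + 1) for the 7 tested ligands in the 4 comparisons and the interaction, with points for the limma estimate, lines for its 95% interval and filled points for an adjusted p under 0.05. With IFN-γ, CD274 lay at 2.97, LGALS9 at 1.44 and CD47 at 1.01, and no ligand was called when CX3CL1 was added to IFN-γ.

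Added to IFN-γ, CX3CL1 gave no further change that passed the test for any of the 7 ligands, where limma called 0.345% of all genes higher. At an unadjusted limma p under 0.05 none of the 7 was called in this fit, and 4.35% of all genes were, in either direction. Same-numbered libraries of these groups correlated at 0.630 to 0.649. With the replicate block limma called 95 genes in place of 43, again with none of the ligands. PVR there had an unadjusted limma p of 0.00483 (log2 fold change 0.40, 95% interval 0.15 to 0.65, limma adjusted p 0.233). By replicate number CD274, CD80, CD47, PVR, LGALS9 and CEACAM1 were higher with both factors in all 3 and CD276 in 1. The share of all genes with that pattern was not counted. With both factors CD274 read 34.7, 27.4 and 72.2 TPM, overlapping its IFN-γ libraries. The log2 fold change was 0.43 with a 95% interval from -0.51 to 1.36 (limma adjusted p 0.975), and it ranged from 0.03 without the CX3CL1+IFN-γ replicate 3 library to 1.00 without the IFN-γ replicate 3 library. CD47 read 235.5, 243.9 and 267.2 TPM with both factors, above each IFN-γ library, as 8.54% of all genes were. Its log2 fold change was 0.26 (SE 0.136, limma adjusted p 0.975). LGALS9 read 434.0, 333.7 and 402.0 TPM and PVR 197.0, 100.6 and 131.3 TPM, overlapping the IFN-γ libraries, with log2 fold changes of 0.14 and 0.40.

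Against CX3CL1 alone, both factors together raised CD274 and LGALS9, 2 of the 7 tested ligands, with 3.76% of all genes tested called higher. CD274 was at 6.70 times its mean with CX3CL1 alone, with a log2 fold change of 2.47 (SE 0.431, limma adjusted p 0.00527). LGALS9 rose by 0.84 on the log2 scale (SE 0.143, limma adjusted p 0.00438). CD47 was higher in every library than with CX3CL1 alone, as were 14.0% of all genes, and was not called (log2 fold change 0.39, limma adjusted p 0.142). Same-numbered libraries of these groups deviated together (correlations of 0.351 to 0.428), and with the replicate block limma called the same 2 ligands and 1369 genes in place of 558.

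The interaction compares the step from IFN-γ to both factors with the step from no treatment to CX3CL1, so a negative value means a smaller CX3CL1 step in the presence of IFN-γ. It was -0.63 for CD47 (SE 0.192, 95% interval -1.04 to -0.21), -0.60 for LGALS9 (SE 0.203, -1.04 to -0.16) and -0.50 for CD274 (SE 0.609, -1.82 to 0.82) on the log2 scale, and that of CD274 turned to 0.07 without IFN-γ replicate 3. The unadjusted limma p was 0.00642 for CD47 and 0.0114 for LGALS9, and after adjustment none of the ligands passed (0.762 for CD47 and 1.00 for LGALS9). Of all genes tested, 0% were called for the interaction and 273, or 2.30%, had an unadjusted limma p under 0.05.

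The order of the levels differed between ligands. For CD274 and LGALS9 it ran from no treatment through CX3CL1 and IFN-γ to both factors, and only the last neighbours overlapped. For CD47 the order was the same, but CX3CL1 and IFN-γ overlapped (means of 191.0 and 207.3 TPM) while both factors together stood apart at 248.9 ± 16.4 TPM. The neighbours in the orders of PVR, CD80, CD276 and CEACAM1 all overlapped. Every CX3CL1 library lay above every untreated one for 5.50% of all genes, and every library with both factors above every IFN-γ one for 8.54%. The share for the step from CX3CL1 to IFN-γ was not counted, so the orders are descriptions of these ligands only.

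Summed over the 9 genes, the ligand transcripts amounted to 343 ± 51.2 TPM without treatment, 561 ± 4.25 with CX3CL1, 735 ± 90.0 with IFN-γ and 861 ± 108 with both (SD, n = 3). LGALS9 gave the largest mean share in every group, from 37.8% to 48.1% of a library's sum. In CX3CL1 replicate 2 CD47 gave a larger share than LGALS9 (39.0% against 35.0%). CD274 made up 0.888% of the sum without treatment, 1.19% with CX3CL1, 4.81% ± 3.41 with IFN-γ and 5.13% ± 2.48 with both. The IFN-γ share rested on replicate 3, since the libraries stood at 2.48%, 3.23% and 8.72%, and without replicate 3 the means were 2.85% with IFN-γ and 3.70% with both. CD80 binds PD-L1 on the same cell and passed the test in no comparison, and the mean ratio of CD274 to CD80 transcripts went from 0.207 ± 0.0404 through 0.388 ± 0.147 to 2.35 ± 1.99 and 2.51 ± 1.65, the last 2 of which were 1.20 and 1.56 without replicate 3. These are shares of transcripts and not of protein on the surface.

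**Figure D3:**
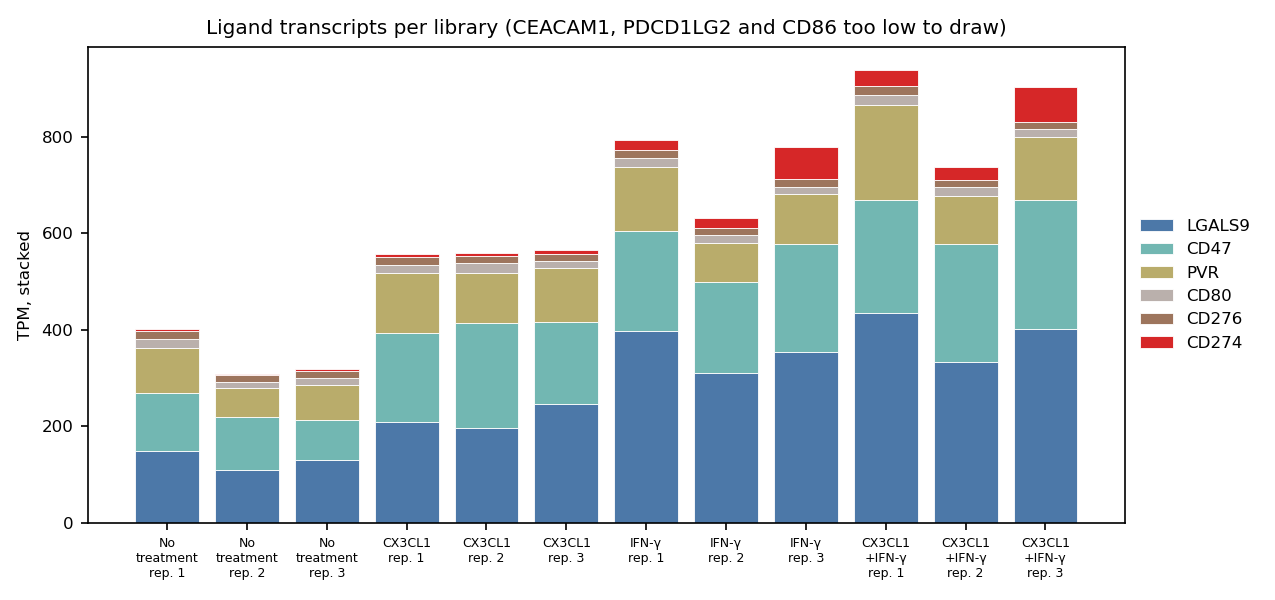
Stacked TPM of 6 ligands in each of the 12 libraries on a linear axis from 0, with CEACAM1, PDCD1LG2 and CD86 left out because they are too low to draw. LGALS9, CD47 and PVR formed most of every bar, and CD274 was visible as a distinct band with IFN-γ, at its widest in the replicate 3 libraries.

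The high CD274 values fell in the replicate 3 libraries of both IFN-γ groups. On the scale of log2(TPM + 1), replicate 3 exceeded the mean of replicates 1 and 2 by 1.72 for CD274 with IFN-γ, rank 6 from the top among 11878 genes, and by 1.20 with both factors, rank 22. IRF1, the transcription factor through which IFN-γ acts on the PD-L1 gene, read 78.7, 77.6 and 166.0 TPM with IFN-γ, and its replicate 3 exceeded the others by 1.08 (rank 40) and by 0.80 (rank 101) with both. The excess of CD274 was 0.39 with CX3CL1 alone (rank 402) and 0.20 without treatment (rank 818), and LGALS9 showed 0.02 with IFN-γ. Most other genes listed for IFN-γ signalling were higher in replicate 3 with IFN-γ. SOCS1 showed 0.74 with IFN-γ (rank 104) and 0.82 with both factors (rank 96), and STAT2 and IRF2 each showed 0.51 with IFN-γ (ranks 206 and 211). Lower with IFN-γ were SOCS3, JAK1 and PIAS1 (-0.13, -0.07 and -0.04), where the median of all genes was -0.04. With both factors IFNGR1, IFNGR2 and PTPN2 were lower as well. What set replicate 3 apart was not tested.

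Upstream of CD274, 5 of the 13 genes listed for IFN-γ signalling rose with IFN-γ by limma and none fell, where 5.91% of all genes were called higher. STAT2, a transcription factor of the interferon response that JAK kinases activate, rose from 22.5 ± 5.70 to 144.6 ± 31.6 TPM (log2 fold change 2.64). IRF1 rose by 2.31 and IRF9, the partner of STAT2, by 1.12 on the log2 scale. Limma adjusted p-values of these 3 genes lay at 0.000152 or lower. SOCS1, which encodes a feedback inhibitor of JAK signalling, rose by 0.97 on the log2 scale (limma adjusted p 0.0327), and STAT3, named beyond the rule, by 0.80. The call of SOCS1 was lost with no filter, median-ratio scaling or quantile normalization and without any 1 untreated library or IFN-γ replicate 3. With the replicate block IFNGR2, a chain of the IFN-γ receptor, was called as well (0.49, limma adjusted p 0.00546), which made 6 of 13, with 11.4% of all genes called higher. CX3CL1 alone raised STAT2 (1.42) and IRF9 (0.80), 2 of the 13 (1.78% of all genes). The block added IFNGR2 there (0.58, limma adjusted p 0.00559), 3 of 13 with 2.92% of all genes called higher. IRF1 was at 28.9 ± 5.26 TPM with CX3CL1 against 19.6 ± 0.884 without treatment and was not called (0.53, limma adjusted p 0.778). Added to IFN-γ, CX3CL1 changed none of the 13 by limma, with 2 at an unadjusted p under 0.05 and none with the block. Against CX3CL1 alone both factors raised 4 (3.76% of all genes), which were IRF1 (1.57), STAT2 (1.39), SOCS3 (1.10), a feedback inhibitor like SOCS1, and STAT3 (0.75). The call of STAT3 was lost there without CX3CL1 replicate 2 or 3 or CX3CL1+IFN-γ replicate 1 or 3. With the replicate block SOCS1 (0.60, limma adjusted p 0.00939) and IRF9 (0.38, limma adjusted p 0.0225) passed too, 6 of 13 with 8.71% of all genes called higher. The list's median log2 fold change was 0.49 with IFN-γ and 0.29 with CX3CL1, against 0.03 and -0.02 over all genes.

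Of 8 genes for NF-kB subunits and their inhibitors, 5 rose with CX3CL1, where 1.78% of all genes were called higher, and 3 with IFN-γ, where 5.91% were. The median log2 fold change of the 8 was 0.91 with CX3CL1 and 0.63 with IFN-γ, against -0.02 and 0.03 over all genes. With CX3CL1 they were NFKBIA (log2 fold change 2.25), which encodes the inhibitor that holds NF-kB in the cytoplasm and is itself a target gene, RELB (1.67), BCL3 (1.60), NFKB1 (0.93) and, named beyond the rule, NFKB2 (0.90), with limma adjusted p-values of 0.0307 or lower. BCL3 lost its call without untreated replicate 2 or 3 or CX3CL1 replicate 1 or 3, and NFKB2 without any 1 of these libraries or untreated replicate 1. With CX3CL1 the block added NFKBIB (0.60, limma adjusted p 0.0405), 6 of 8 with 2.92% of all genes called higher. NFKBIA (2.05), RELB (1.82) and BCL3 (1.63) also rose with IFN-γ, and the block added NFKB2 and NFKBIB, 5 of 8 with 11.4% of all genes called higher. The step from IFN-γ to both factors raised NFKB1 (0.82), 1 of the 8, where 0.345% of all genes were called higher. The block added BCL3 there (1.46, limma adjusted p 0.00653), 2 of 8 with 0.749% of all genes called higher. Against CX3CL1 alone both factors raised BCL3, 1 of the 8, where 3.76% of all genes were called higher. That call was lost without CX3CL1 replicate 2 or 3 or CX3CL1+IFN-γ replicate 1 or 3. Of 20 tested genes for handling of the PD-L1 and CD47 proteins (glycosylation, ubiquitination, recycling, shedding), limma called 0 in each of the 4 comparisons, in which 0.345% to 5.91% of all genes were called higher. At an unadjusted limma p under 0.05 there were 3 with IFN-γ, where 22% of all genes passed in either direction. Each of the other comparisons had 1. There the shares of all genes were 8.07% for CX3CL1 against no treatment, 4.35% for both factors against IFN-γ and 17.7% against CX3CL1. Their log2 fold changes lay between -0.39 and 0.31, and the highest in level, CDK4, OTUB1 and COPS5, differed by -0.00, 0.25 and -0.10 with IFN-γ. With the replicate block OTUB1 and B3GNT3, 2 of 20, were called higher with IFN-γ, where 11.4% of all genes were. CMTM4 was called lower with both factors against CX3CL1 (-0.35, limma adjusted p 0.0499), where the block called 1369 of 11878 genes in either direction.

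**Figure D4:**
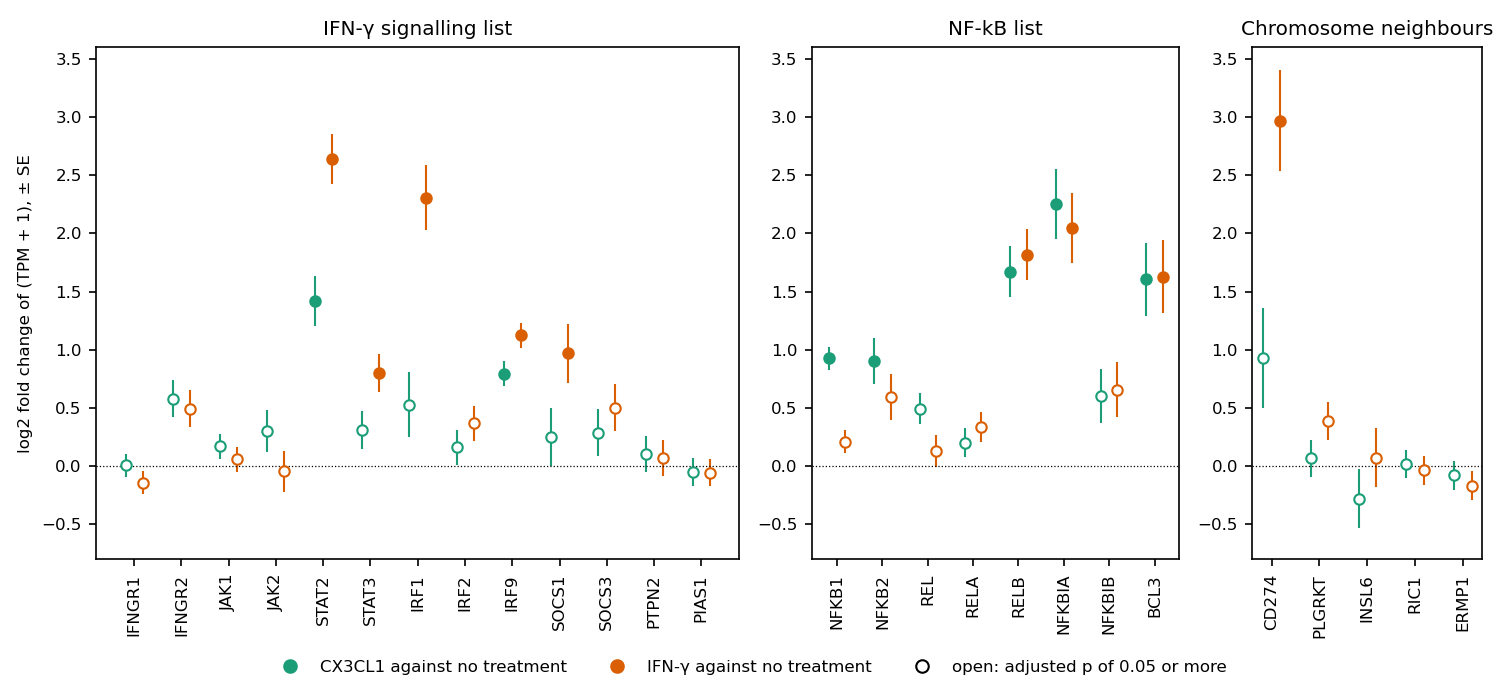
Log2 fold changes of (TPM + 1) ± SE by limma for the IFN-γ signalling list, the NF-kB list and the genes beside CD274, for CX3CL1 against no treatment (green) and IFN-γ against no treatment (orange), with filled points for an adjusted p under 0.05. STAT2 reached 2.64 with IFN-γ, NFKBIA 2.25 with CX3CL1, and no tested gene next to CD274 was called.

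None of the genes next to CD274 and PDCD1LG2 was called by limma in any comparison, and PLGRKT with IFN-γ was the 1 with an unadjusted p under 0.05. Of the 3 protein-coding genes on either side, 4 of 6 passed the filter: INSL6, PLGRKT, RIC1 and ERMP1. PLGRKT, which encodes a plasminogen receptor and starts beside CD274, read 72.4, 51.1 and 60.1 TPM without treatment and 85.8, 66.1 and 88.6 TPM with IFN-γ. These libraries overlapped, with a log2 fold change of 0.39 (SE 0.162, limma adjusted p 0.186), and the replicate block brought PLGRKT past the threshold (limma adjusted p 0.0139). The difference between the responses of PLGRKT and CD274 was not tested.

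Among 14 other inhibitory ligands and related surface proteins, 6 passed the filter and 2 rose with IFN-γ, in a comparison with 5.91% of all genes called higher. H2-T23, the mouse Qa-1 molecule that engages NKG2A, read 12.4, 5.61 and 6.53 TPM without treatment and 64.6, 57.5 and 68.5 TPM with IFN-γ, and its log2 fold change of 2.88 (SE 0.243, limma adjusted p 8.22e-06) was close to that of CD274. Unlike CD274, its replicate 3 did not stand apart. Reads of H2-T23 may be shared with other MHC class I genes, and an antisense gene is annotated over 3083 of its bases. TNFRSF14 (HVEM), the ligand of BTLA, went from 4.38 ± 0.830 to 12.7 ± 6.05 TPM (log2 fold change 1.27, limma adjusted p 0.0478), a call lost without any 1 of the untreated libraries or IFN-γ replicate 2 or 3, and with median-ratio scaling or quantile normalization. With the replicate block, where 11.4% of all genes were called higher, 5 of the 6 were called higher and LGALS1 lower. H2-T23 rose by 2.00 with both factors against CX3CL1 alone, where the block added NECTIN2 and VTCN1, and limma called none of the 6 for CX3CL1 against no treatment or for CX3CL1+IFN-γ against IFN-γ (1 and 0 at an unadjusted p under 0.05).

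Costimulatory ligands were low or level: 2 of 10 passed the filter and limma called none, also at an unadjusted p under 0.05, TNFSF9 (4-1BB ligand) averaging 22.8 to 24.2 TPM in the 4 groups. Of 13 receptors for the ligands, PDCD1, CTLA4 and CD28 did not exceed 0.0343 TPM on average in any group, and 3 passed the filter. TIGIT, a receptor of PVR that is known from T cells and NK cells, was among them, at 52.9 ± 6.11 TPM without treatment and 67.1 ± 1.53 TPM with IFN-γ (log2 fold change 0.34, limma adjusted p 0.0834, and 0.0345 with the replicate block). CD226 and SIRPA were listed at 0 in every library. HAVCR2 (TIM-3), a receptor of galectin-9, averaged 0.527 to 1.34 TPM and LAG3 0.281 to 0.978 TPM, and LAG3 passed the test with IFN-γ only under the block (limma adjusted p 0.0140).

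The 5 genes whose pattern was most like that of CD274 were BATF2, TRIM30D, GBP10, IFI209 and F830016B08RIK. Likeness was the root mean square difference over the 12 libraries of log2(TPM + 1) minus the untreated mean, and it was 0.232 for BATF2, 0.322 for TRIM30D, 0.341 for GBP10, 0.350 for IFI209 and 0.385 for F830016B08RIK. BATF2 encodes a transcription factor of the AP-1 family, and GBP10 a guanylate binding protein. BATF2 went from 5.52 ± 1.17 TPM without treatment through 13.2 ± 5.76 with CX3CL1 to 59.6 ± 38.4 with IFN-γ and 61.7 ± 29.3 with both, and its replicate 3 was the highest with IFN-γ as for CD274. This is a description over libraries that share their group. The 5 genes were picked for likeness to CD274 over these same 12 libraries, replicate 3 included, so the shared high replicate 3 follows from the choice.

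**Figure D5:**
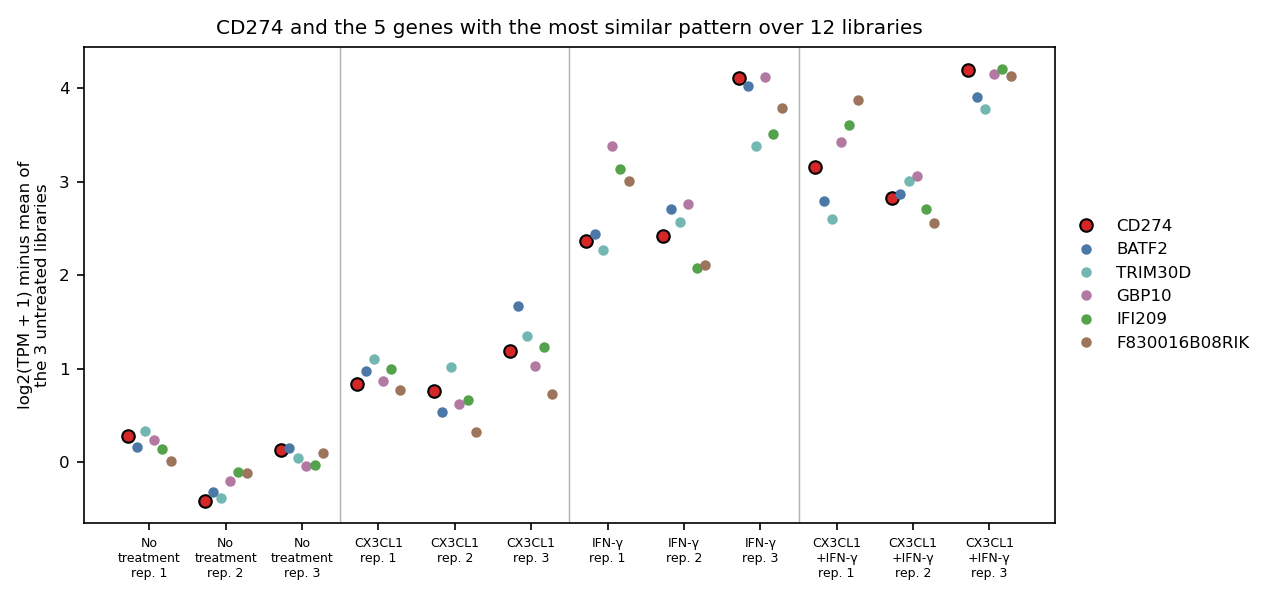
Difference of log2(TPM + 1) from the mean of the 3 untreated libraries for CD274 (large red points) and the 5 genes nearest to it, in each of the 12 libraries (points shifted sideways by gene). CD274 and BATF2 both lay near 4 in the IFN-γ replicate 3 library and between 2 and 3 in replicates 1 and 2. The 5 genes were picked for likeness over these same libraries.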

How the data were processed

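Per the study's methods, the authors made strand-specific mRNA libraries from CT26 cells, aligned reads to mm10 with STAR (2.7.3a in the submitters' processing notes) and ran DESeq2 (1.22.1) for their own comparisons. The deposited table holds TPM per gene symbol, and how the authors converted counts to TPM, and with which annotation, is not given in the sources used here. Library depth is unknown, so no counting intervals were given. Symbols are in upper case, and 26 had been turned into dates. Values were tested as log2(TPM + 1) in limma 3.58.1 (R 4.3.3; trended eBayes) over all 12 libraries, for the 11878 genes whose mean reached 0.2 TPM, with Benjamini-Hochberg adjustment within each comparison and a threshold of 0.05. Fold changes on this scale understate those of low genes. An exact permutation test of 3 against 3 cannot go below 0.1. On simulated data, 181 of 200 genes changed by a log2 of 1 were recovered for IFN-γ against no treatment, with 10 false calls. The simulation drew independent normal errors and changed only genes whose mean log2(TPM + 1) reached 1. It held no deviations shared by same-numbered libraries, so its rates may not hold for the real data. The members and gene lists were chosen with earlier results of these data known. Their counts and medians beside those of all genes are therefore descriptions and not tests of the lists. A gene of the IFN-γ signalling list is not reported here and was left out of its counts and median. All 9 members were named, and of each list up to 4 called genes with the largest change, otherwise up to 3 with the highest level. Whether replicate numbers pair libraries was read from the correlation of deviations from group means, since the labels do not say what a number shares. Same-numbered libraries correlated above 0.1 in every pair for IFN-γ against no treatment and for both comparisons of CX3CL1+IFN-γ. For CX3CL1 against no treatment they correlated at 0.387, 0.00472 and 0.301 in replicates 1, 2 and 3. Positions are from GENCODE vM21 and promoter sequences from RefSeq (GRCm38.p6).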

Additional observations from a re-analysis of the deposited data

How the results depend on the processing

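Of 520 alternative values of the ligands' log2 fold changes, 485 kept direction and side of the threshold, 3 lost the call (LGALS9 with CX3CL1), 2 gained it (PVR under the replicate block) and 30 turned sign, all in differences that were not called. Counts of ligands called were 1 to 2 for CX3CL1 against no treatment without 1 library at a time. Genes called numbered 232 for CX3CL1 against no treatment, 455 with the replicate block and 152 to 268 without 1 library. PVR passed with the block (limma adjusted p 0.0161). Same-numbered libraries of these groups correlated at 0.387, 0.00472 and 0.301, so whether the numbers pair them is not clear. For IFN-γ against no treatment the block gave 1929 and leaving out libraries 530 to 764. For CX3CL1+IFN-γ against IFN-γ the count was 28 with no filter, 20 with the compared libraries only, 95 with the block and 16 to 54 without 1 library. Against CX3CL1 it was 344, 1369 and 270 to 668 under the last 3 of these settings. The interaction had 1 call with quantile normalization, 52 with the block and 0 to 11 without 1 library. Signs turned for CX3CL1+IFN-γ against CX3CL1 with median-ratio scaling (CD80 -0.00766, CD276 -0.0451) and quantile normalization (-0.0225, -0.0711), and for the interaction of CEACAM1 (-0.0732 with a pseudocount of 0.1, -0.00393 median-ratio, -0.0210 quantile) and CD276 (-0.00113 median-ratio). Without 1 library, the interaction ranged from -0.90 to 0.0698 for CD274, -0.44 to 0.0427 for PVR, -0.20 to 0.0482 for CD80, -0.0800 to 0.12 for CD276 and -0.20 to 0.13 for CEACAM1, and differences from -0.10 to 0.0689 for CD276 with IFN-γ, -0.17 to 0.00282 for both factors against IFN-γ and -0.0857 to 0.0926 against CX3CL1, with CD80 at -0.0736 to 0.18 there. The block changed no other ligand's call. Causes were not tested. TPM keeps no depth, so levels under the filter carry no counting limit.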
